A study of Mus musculus with 2 samples.

Results

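Cone photoreceptors carry a set of transcripts that few other cells of the retina make, and the GSK-J4-treated cells of a *Pde6c* mutant mouse were divided here by whether any of those transcripts was counted in them. The division used 11 cone genes: *Opn1sw*, *Opn1mw*, *Gnat2*, *Gnb3*, *Gngt2*, *Pde6c*, *Pde6h*, *Cnga3*, *Cngb3*, *Guca1a* and *Arr3*. The members were chosen by their own measured values, the counts summed over these genes, so those counts are given as a description. Of 64 treated cells kept by the filter on cell quality, 14 had a sum of at least 1 and 50 had 0 (21.9% with, exact binomial 95% interval 12.5 to 34%). Before the filter there were 66 treated cells, 15 with and 51 without, among 151 cells in all. The remaining 85 cells, of which 82 passed the filter, came from uninjected retinae.

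Light detection in a cone runs from the opsins through the G protein transducin to a phosphodiesterase, which lowers cyclic GMP and so closes cyclic nucleotide-gated channels in the outer segment. *Opn1sw* and *Opn1mw* encode the short- and medium-wavelength opsins, *Gnat2*, *Gnb3* and *Gngt2* the transducin subunits, *Pde6c* and *Pde6h* the catalytic and inhibitory subunits of the phosphodiesterase, *Cnga3* and *Cngb3* the channel, *Guca1a* a calcium sensor of guanylate cyclase, and *Arr3* cone arrestin, which shuts the opsin off. Loss of the catalytic subunit leads to cone degeneration, and the cpfl1 line is a mouse model of it.

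Both libraries came from C57BL/6 mice with the *Pde6c* cpfl1 mutation crossed to Chrnb4.eGFP (*Pde6c*.GFP), in which GFP is expressed from a *Chrnb4* promoter, so no wild-type cell enters these values. Treated retinae received 1 intravitreal injection of 10 µM GSK-J4, an inhibitor of the histone H3K27 demethylases, at PN14, were collected 10 days later at PN24, and GFP-positive cells were sorted 1 per well into a 96-well plate. The labels give PN24 for both libraries, while the cell names of the treated one hold the word adult. There was 1 library per condition and no label ties a cell to an animal, so cells are not replicates, no p-value can be given, intervals cover counting error only, and the treatment, the animals and the plate cannot be told apart. Sorting itself selected for GFP and not for any of the 11 genes, and the data used here hold no cells of another type that would give a level for cells without cone transcripts.

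The label of cone photoreceptor was checked against the markers first. Each of the 82 uninjected cells had counts of at least 5 of the 11 genes, with a median of 8 and at most 11, and their cone counts ran from 6 through a median of 141 to 2286. Counting only genes with 2 or more counts in a cell, they had 1 to 10 cone genes with a median of 6. Of the 14 treated cells with cone counts, 12 had counts of 1 cone gene and 2 had counts of 2 genes. None of the 64 treated cells had 3 or more, and with that 0 set at a floor of 3 cells the share would be 4.69%. At this depth the 14 cells did not show the marker set of a cone, and they are called here by the rule, as cells with cone marker counts, and not as cones.

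The 445 cone counts of the treated library (Poisson 95% interval 405 to 488) lay almost wholly in 4 cells, and in each of these on 1 gene. The cell in well C02 had 303 counts of *Opn1mw*, which were 6.74% of its 4494 counts. The cell in E12 had 88 counts of *Pde6h* among 2678, the cell in F05 had 37 of *Arr3* among 8436, and the cell in A06 had 5 of *Cnga3* among 2855. No other cone gene had a count in any of these 4 cells, which together held 433 of the cone counts (97.3%).

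The other 10 cells shared 12 cone counts (6.20 to 21.0). Well F01 had 1 count each of *Opn1mw* and *Cnga3*, and well G12 had 1 each of *Arr3* and *Pde6h*. The 8 cells just inside the rule had exactly 1 count: of *Pde6h* in E05, F12 and G04, of *Cnga3* in D06 and H11, of *Gnb3* in A02, of *Arr3* in A04 and of *Gnat2* in E01. The 50 cells just outside it had 0. Cone genes took 0.643% of the counts of the 14 cells and 0.0237% once the 4 cells were left out, against 2.59% in the uninjected library.

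**Figure D1:**
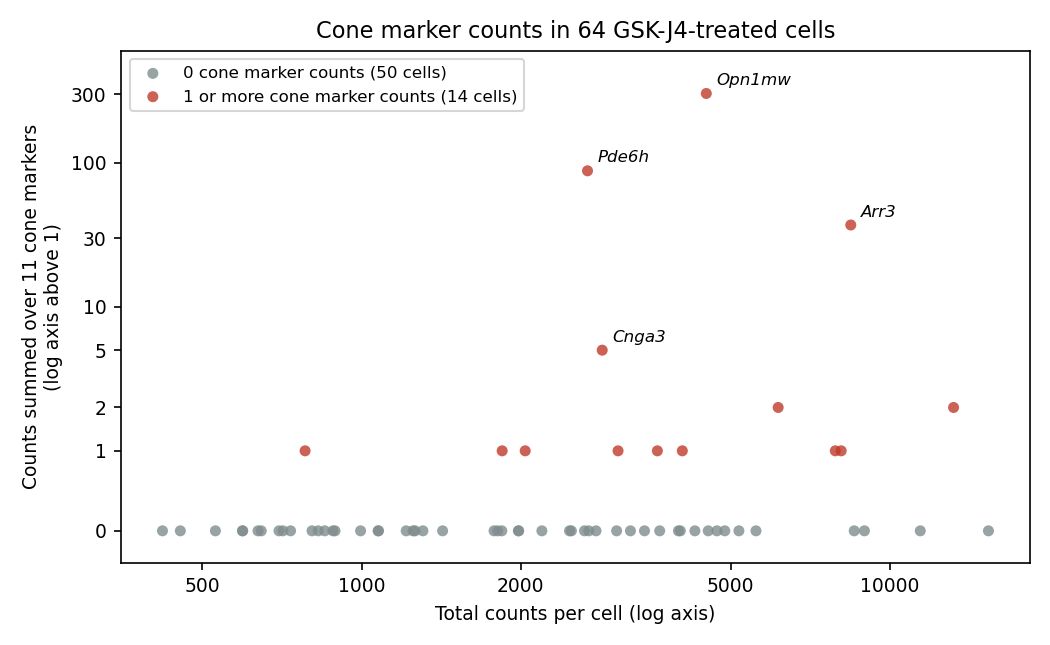
Each point is 1 of the 64 GSK-J4-treated cells, with its total counts on a log x axis and its counts summed over the 11 cone markers on the y axis (log above 1); the 4 cells with 5 or more are labelled with the only cone gene counted in them. The 14 cells with cone counts lay between 782 and 13203 total counts, and 10 of them had 1 or 2 cone counts.

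Taken gene by gene, the treated library held counts of 6 of the 11 markers. *Opn1mw* (X:74127464-74150760, plus strand; gene positions are those of GENCODE vM21 on GRCm38) had 304 counts in 2 cells, of which 1 cell held 99.7%. In uninjected cells it had 4831 counts, in 100% of the cells, and the highest cell held 23.4% of them, while 53 of the 82 cells had exactly 1. *Pde6h* (6:136923832-136968865, plus strand) had 92 counts in 5 cells, 95.7% of them in 1, against 1628 counts in 100% of uninjected cells, 48 of which had exactly 1. *Arr3* (X:100605497-100618493) had 39 counts in 3 cells, 94.9% in 1, against 1341 counts in 97.6% of uninjected cells. *Cnga3* (1:37214434-37263384) had 8 counts in 4 cells against 27 in the uninjected library. Scaled to the size of each library these were 0.384 and 0.242 per 10000 counts. *Gnat2* and *Gnb3* had 1 count each against 509 and 691.

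The other 5 markers had 0 counts in all 64 treated cells, although 3 of them led the uninjected library. *Gngt2* (7459 uninjected counts) was at least 466-fold lower per count sequenced when its 0 was set at a floor of 3 counts over the library, *Opn1sw* (6935) at least 433-fold and *Guca1a* (5193) at least 324-fold. *Cngb3* and *Pde6c* had only 103 and 69 uninjected counts, so their floors allow at least 6.43-fold and 4.31-fold.

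The make-up of the cone counts differed between libraries. *Opn1mw* was 68.3% of the cone counts in treated cells and 16.8% in uninjected cells, and *Pde6h* was 20.7% and 5.66%. *Gngt2* and *Opn1sw*, which had no treated count, were 25.9% and 24.1% of the uninjected cone counts. Uninjected cells that reached the levels of the 4 treated cells carried the rest of the pathway too. There were 6 uninjected cells with at least 303 *Opn1mw* counts, and these had 8 to 11 cone genes and at least 203 counts of the other 10 markers. The 5 cells with at least 88 *Pde6h* counts had 8 to 11 cone genes, the 6 with at least 37 *Arr3* counts had 9 to 11, and the 1 with at least 5 *Cnga3* counts had 10. These uninjected cells were also deeper, with at least 14076, 8419, 20388 and 5163 total counts for the 4 genes in that order.

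The *Pde6h* gene model overlaps *Arhgdib* on the other strand, and no source says that strand was used in counting. *Arhgdib* had 0 counts in all treated cells.

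**Figure D2:**
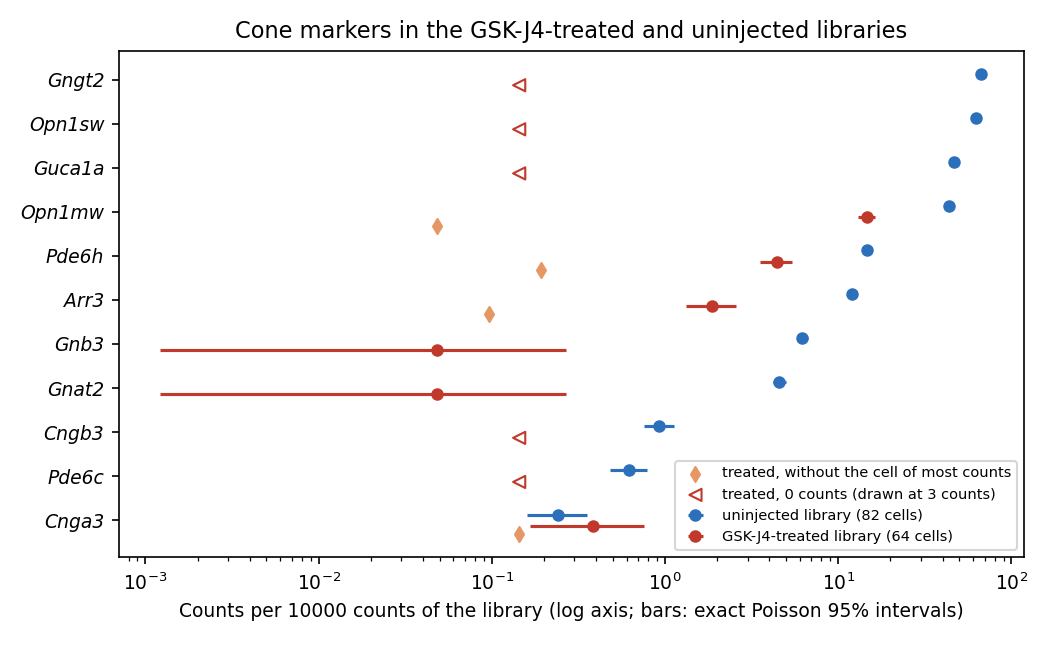
Counts per 10000 counts of each library for the 11 cone markers (log x axis), with exact Poisson 95% intervals, in treated cells (red) and uninjected cells (blue); orange diamonds leave out the treated cell with most counts of the gene, and open triangles stand at 3 counts for markers with 0. *Cnga3* is the marker whose intervals meet, and *Opn1mw*, *Pde6h* and *Arr3* fall to 1, 4 and 2 counts without their top cell.

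Cells with cone marker counts were deeper than those without. The rule itself favours this, as a deeper cell has more chance of a marker count, so the depths are given as a description. Their totals ran from 782 through a median of 3839.5 to 13203 counts, and those of the 50 others from 420 through 1826.5 to 15371, a ratio of medians of 2.10. The ranges overlapped, and the deepest treated cell had no cone count. Genes found per cell had medians of 1471 and 760.5. Divided by depth into 4 sets of 16 cells, the treated library had 1 cell with a cone count in the shallowest set (6.25%, interval 0.158 to 30.2%), then 2 (12.5%), 5 (31.2%) and 6 (37.5%, interval 15.2 to 64.6%). Uninjected cells had a median of 8118 counts.

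Thinning brought the groups to 1 depth. When each cell was cut at random to 661 counts, the 10th percentile of treated totals, 57 treated cells were deep enough, among them the 14. Of these, 5 still had a cone count (8.77%, interval 2.91 to 19.3%), against 82 of 82 uninjected cells, which kept between 1 and 7 cone genes with a median of 4. The medians of genes found were then 351.5 in the 14 cells, 354 in 43 cells without cone counts and 361.5 in uninjected cells.

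The cells with cone counts were also unevenly placed on the plate. Columns 1 to 6 held 10 of their 33 treated cells (30.3%) and columns 7 to 12 held 4 of 31 (12.9%), with median totals of 1843 and 2692 counts. Outer wells held 9 of 27 (33.3%) and inner wells 5 of 37 (13.5%), with median totals of 2779 and 1846. *Pde6h* was counted in 3 adjoining wells of column 12 (88 counts in E12, 1 each in F12 and G12). Well names were shared between the libraries for 54 treated cells, 11 of them with cone counts. The part of plate position in the result was not tested.

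**Figure D3:**
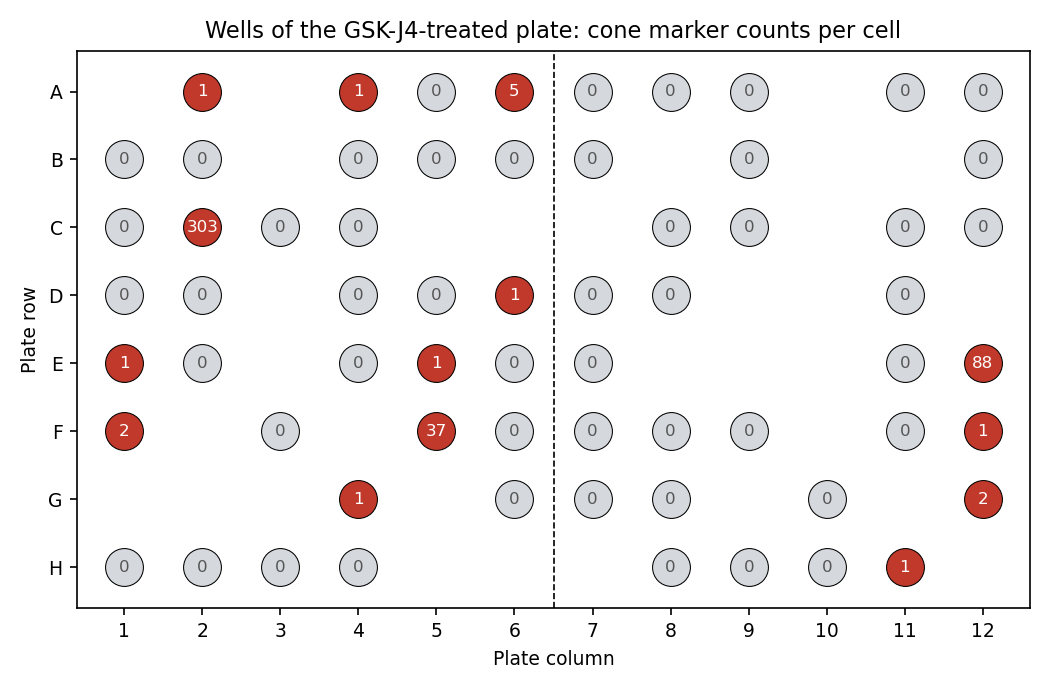
Map of the treated plate, with each circle a well kept by the filter, its number the cone marker counts of that cell, and red the 14 cells with at least 1; the dashed line parts columns 1 to 6 from 7 to 12. Red wells are 10 of 33 on the left and 4 of 31 on the right, and row B has none.

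Genes of photoreceptors that were not in the rule give a measure of photoreceptor transcripts apart from the division, though not of cones alone. A list of 33 such genes (31 with a row, 25 with a treated count) took 0.134% of the counts of the 14 cells (Poisson 95% interval 0.108 to 0.165%), 0.154% (0.134 to 0.176%) of those of the 50 others and 0.645% of the uninjected counts. Each of the 14 cells had counts of 1 to 6 of these genes, with a median of 2, and the 50 others had 0 to 9, with a median of 1. Among cells at or above the median depth of 2335.5 counts, 11 with and 21 without cone counts, the medians were 2 and 2. Uninjected cells had 2 to 28 with a median of 12. The treated groups overlapped throughout.

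Some of these genes did stand in cells with cone counts. *Thrb*, the thyroid hormone receptor that drives medium-wavelength opsin, had 20 counts in H11 and 1 in E01 and none in the 50 other cells, against 513 uninjected counts. *Kcne2*, a potassium channel subunit, had 13 counts in E12, 7 in F01 and 1 in F05, against 7 counts in 2 cells without cone counts. *Sag*, *Rcvrn* and *Prph2*, which encode arrestin, recoverin and an outer segment rim protein, had 1 count each in the 14 cells, in F12, A02 and F05, and 3, 0 and 0 in the others. *Tulp1* had 1 count against 42. *Rom1*, *Pdc* and *Neurod1* had 0 counts in both groups, against 1565, 1019 and 250 in uninjected cells. *Crx*, the homeobox factor of photoreceptors, had 1 count in each group. The uninjected counts given here are not scaled and come from a library with more counts.

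Markers of other retinal cell types took small shares of the counts in both groups, and some of these shares were above those of uninjected cells. Rod genes took 0.0202% of the counts with and 0.0380% without cone counts, against 0.292% in uninjected cells. Müller glia genes took 0.0159% and 0.0552%, against 0.137% in uninjected cells. They had a count in 50% of the cells with and 42% of the cells without cone counts. *Apoe* had 1 and 39 counts, 21 of the latter in 1 cell. *Vim* went the other way, with 4 counts in each group, in 28.6% and 8% of cells, and *Rlbp1* had 0 and 7 counts. Bipolar, amacrine, horizontal and ganglion cell lists lay between 0.0129% and 0.0294% in both groups. In uninjected cells they took 0.0419%, 0.00790%, 0.0252% and 0.00943% in that order. Amacrine and ganglion cell shares were thus higher, and bipolar and horizontal cell shares lower, in both treated groups. Microglia, pigment epithelium, astrocyte, endothelial, pericyte and lens lists lay between 0.00289% and 0.0159%, and erythrocyte genes had no count. The uninjected shares of the former were 0.000988%, 0.00314%, 0.0155%, 0.00647%, 0.00440% and 0.000719% in that order. All of these but the astrocyte share were exceeded by both treated groups. Of all these cell type lists, the Müller glia intervals alone did not meet (0.00794 to 0.0284% and 0.0436 to 0.0690%). *Chrnb4*, whose promoter drives the GFP of the sort, had 8 counts in 4 of the 14 cells and 28 in 9 of the 50, against 403 uninjected counts. A single cell held 20 of the 28, and without it the share in the cells without cone counts fell from 0.0201% to 0.00585%. The share of the 14 cells was 0.0116%, but 1 of them held 5 of their 8 counts, so no direction can be read.

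Genes of basic cell function took small shares of the counts in both treated groups. The 84 cytosolic ribosomal protein genes took 0.156% (0.128 to 0.188%) of the counts with and 0.276% (0.249 to 0.304%) without cone counts, against 3.66% in uninjected cells, and after thinning the shares were 0.195% and 0.179%. Per cell the ribosomal share had medians of 0.0962% and 0.0774% in the treated groups and 3.24% in uninjected cells. Of 84 genes, 11 could be compared between the treated groups by the log-fold described below. Of these, 4 were higher, 3 lower and 4 within the limit of 0.3. Among all 5761 genes compared, 24.8% were higher and 21.1% lower.

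Mitochondrially encoded protein genes took 0.228% and 0.269%, against 1.10%, and the 97 nuclear genes of oxidative phosphorylation 0.184% and 0.212%, against 3.71%. A single cell held 220 of the 375 mitochondrial counts in the cells without cone counts, and the share left without it was 0.125%, below that of the 14 cells. Among the 14, 1 cell held 54 of the 158 mitochondrial counts and was kept in. Both treated groups lay below the uninjected library for each of these lists. Actin and thymosin genes had 1 count in the 14 cells (0.00145%) and 38 in the 50 others (0.0273%), against 15161 in uninjected cells (1.36%). *Cfl1*, which encodes the actin-severing protein cofilin, held 34 of those 38 counts, 17 of them in 1 cell.

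Heat shock genes were higher in the cells with cone counts (0.311% against 0.192%), and 95 of the 118 *Hsp90ab1* counts there came from 1 cell. Without that cell the share was 0.179%. Long noncoding RNAs took 0.0809% and 0.0387%, and *Malat1*, a nuclear RNA counted in 95.1% of uninjected cells, had 42 counts in 3 of the 14 cells, 40 of them in 1 cell, against 9 counts in 9 of the 50. Without the cell of most counts the share of this list was 0.0250%, below that of the other group.

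Genes of DNA repair took 0.262% with and 1.97% without cone counts, of which *Mgmt*, which repairs alkylated guanine, gave 14 and 2192 counts. A single cell held 2143 of the *Mgmt* counts, and the share without it was 0.454%. Apoptosis genes took 0.155% and 0.562%, with *Cyld* at 34 and 439 counts, 363 of the latter in 1 cell, and 0.305% was left without the cell of most counts. Channel genes took 0.416% and 0.663%, but their medians per cell were 0.464% and 0.443%. The highest of the 50 cells had 14.8% of its counts on this list. The DNA repair and channel lists, and *Parp1*, *Cyld* and *Dapk2* of the apoptosis list, hold genes the study named from these libraries, so they are no independent evidence. The enzymes of H3K27 methylation, the target of GSK-J4 among them, took 0.0260% and 0.0366%, with intervals that met. *Kdm6b*, which encodes 1 of the demethylases, had 7 counts in 5 of the 14 cells and 6 in 6 of the 50. *Jarid2* and *Eed*, also among the most counted of this list, went the other way, with 2 and 16 counts and 1 and 9 counts.

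In all, 29 lists had a treated count. The cells with cone counts were higher for 11 and lower for 18, and the Poisson intervals did not meet for 4 of the higher and 8 of the lower lists. Genes of olfactory and vomeronasal receptors, which cones do not use and which serve as a measure of background, were among the higher ones (1.43% against 1.27%, uninjected 0.590%). A single cell held 240 of the 987 counts in the 14 cells, and another held 327 of the 1777 in the 50. The share of the 14 without the former was not tested. Medians per cell were 1.19% and 0.957%.

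**Figure D4:**
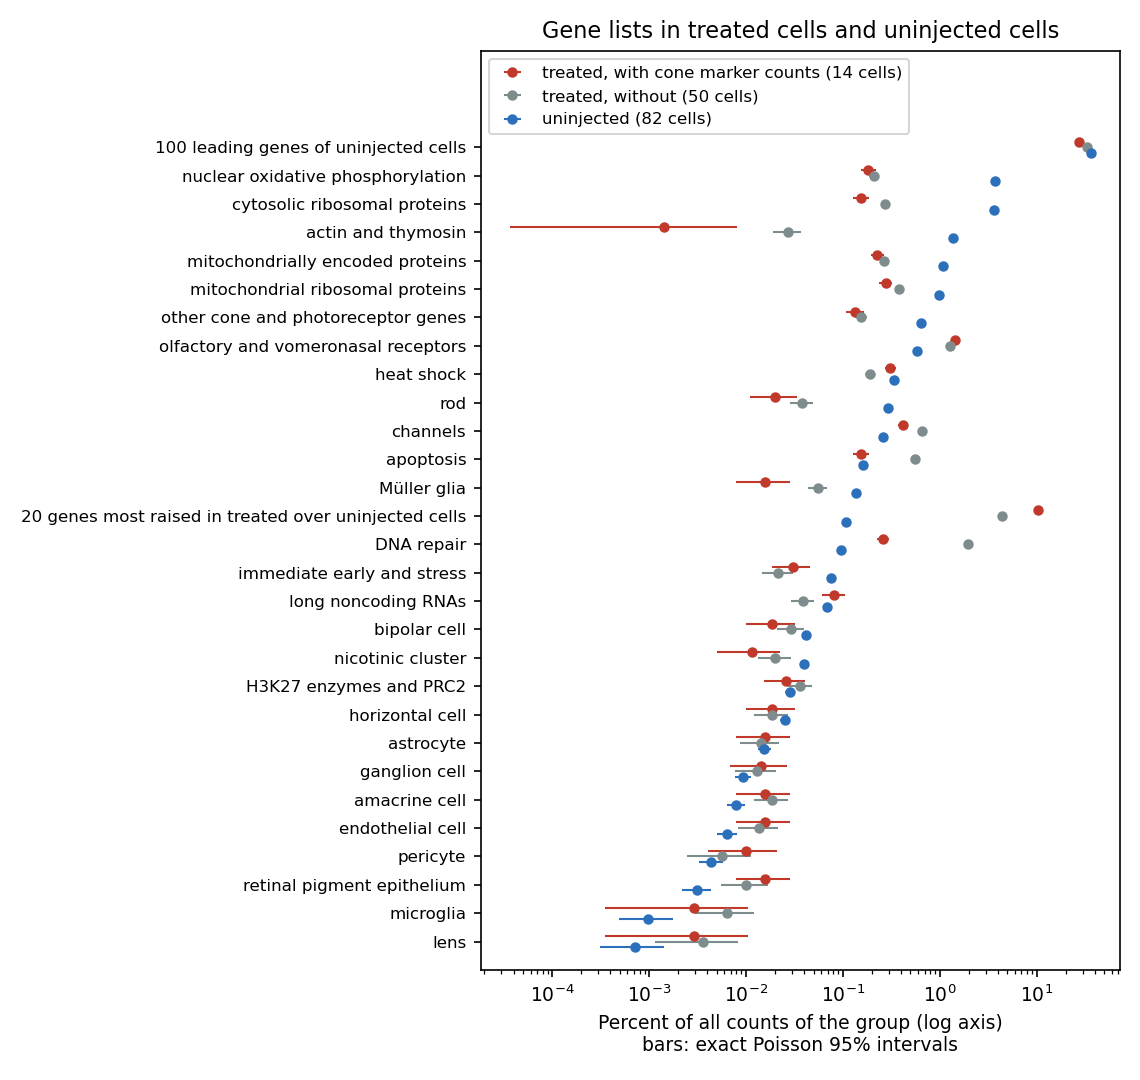
Share of all counts, in percent on a log axis, taken by each gene list in treated cells with (red) and without (grey) cone marker counts and in uninjected cells (blue), with exact Poisson 95% intervals that cover counting error only; the erythrocyte list, with no treated count, is not drawn. For ribosomal, oxidative phosphorylation and other photoreceptor genes both treated groups lie below the uninjected cells. The intervals of the treated groups meet for oxidative phosphorylation and other photoreceptor genes and do not meet for ribosomal genes.

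Across all other genes, the cells with and without cone counts were compared by the log-fold, the natural log of the mean counts per 10000 plus 1, with minus without. Among the 5761 genes found in 10% or more of the cells with or without cone counts, 2644 lay past 0.3 in either direction (45.9%), 1427 higher (24.8%) and 1217 lower (21.1%), with a median log-fold of 0.07 over all genes. When the cell with most counts was left out for each gene, 1553 lay past the limit (27%). Of the 2644 genes, 1051 (39.8%) stayed past it in the same direction and 458 (17.3%) changed sign.

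Counts of 1 gene were often gathered in 1 cell of the treated library. Of 860 genes with at least 30 treated counts, 339 (39.4%) had over 50% of them in a single cell, and in the uninjected library it was 749 of 4736 (15.8%). The lists can be read against the 24.8% and 21.1% of all genes. Of 11 other photoreceptor genes that could be compared, 2 were higher and 4 lower (median log-fold -0.18), of 13 oxidative phosphorylation genes 5 and 2 (0.01), of 16 mitochondrial ribosomal protein genes 7 and 4 (0.21), of 17 heat shock genes 5 and 2 (-0.01), and of 96 olfactory and vomeronasal receptor genes 23 and 21 (0.11). The members compared had passed the filter on low values through the group in which they were more often found.

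The 10 genes with the highest log-folds, among 1776 genes found in 25% or more of a group, were in 7 cases set by 1 of the 14 cells. *Kif23* (9:61915905-61946774), a kinesin of the midbody in cell division, had 5781 counts with and 55 without cone counts and a log-fold of 3.58. Every treated cell had a count of it, with a median of 1 in both groups and a highest value of 2 among the 50, but the cell in F01 had 5763, which were 43.6% of that cell. Without F01 the log-fold was -0.53.

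*Hcar2*, the hydroxycarboxylic acid receptor for niacin and ketone bodies, followed the same pattern. It had 583 counts in C02, the cell of the 303 *Opn1mw* counts, and exactly 1 count in each of the other 63 treated cells, so its log-fold was 2.42 with and -0.66 without that cell. Since those 63 cells have the same count, the value of -0.66 reflects only their totals. *Tfap4*, a helix-loop-helix transcription factor, had 174 of its 210 counts in A04 (log-fold 2.50, and -0.03 without A04). *Casp6*, an executioner caspase, had 153 of 224 in A06, the cell of 5 *Cnga3* counts, and 1.96 became -0.28. *Arhgef7*, an exchange factor for Rac and Cdc42, *Cdh12*, a cadherin, and the noncoding 4632411P08Rik had log-folds of 2.01, 1.99 and 1.93, and -0.27, -0.10 and -0.18 without their top cells.

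The remaining 3 of the higher genes were less gathered. *Lsm1* (8:25785288-25803975, plus strand), a subunit of the ring that promotes decapping of messenger RNA, had 43 counts in 9 of the 14 cells and 23 in 9 of the 50, or 64.3% and 18% of cells, against 62.2% of uninjected cells. Its highest values were 21 and 6 counts, its medians were 1 and 0, and its log-fold was 2.35, or 0.50 without its top cell E05. After thinning it was found in 35.7% and 6.98% of treated cells, against 4.88% of uninjected cells at the same depth, so the raw 62.2% reflects deeper cells. Among treated cells at or above the median depth it was found in 72.7% and 33.3%. The groups overlapped, with 0 to 21 counts per cell in the 14 and 0 to 6 in the 50. 1700095B10Rik, a transcript antisense to *Myo18b*, had 31 and 29 counts in 64.3% and 24% of cells (log-fold 2.02, and 0.33 without E05), and its reads cannot be told from those of *Myo18b* without strand. *Hid1*, a protein of the Golgi and secretory granules, had 80 and 74 counts (1.93, and 0.24 without E05). The 3 genes share E05 as top cell, which at 782 counts is the shallowest of the 14, so that 1 count there weighs most in a mean of scaled counts.

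The 10 genes with the lowest log-folds each had their highest cell among the 50 without cone counts. *Mgmt* (7:136894614-137130266) had exactly 1 count in all treated cells but D07, where it had 2143, and its log-fold was -2.36, or -0.70 without D07. *March7*, a ubiquitin ligase, had 960 of 1021 counts in B07 and exactly 1 in 61 cells (-2.27, and -0.60 without B07). *Psd3*, an exchange factor for ARF6, had 15 counts with and 195 without cone counts, 153 of them in F09 (-2.56, and -0.32). *Ss18l1*, a subunit of a neuronal chromatin remodelling complex, and *Zfp277*, a zinc finger protein, had log-folds of -2.51 and -1.98, and 0.09 and 0.12 without their top cells. *Mturn*, *Ssc5d*, *Ank1*, *Gm9918* and *Gosr1* ranged from -2.09 to -1.79, and from -0.69 to -0.12 without theirs.

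Of the 20 named genes, 17 had over 50% of their treated counts in 1 cell. Picking extreme log-folds favours such genes, and the share was 39.4% among the 860 genes with at least 30 treated counts. Leaving the top cell of each gene out kept 9 past the limit in the same direction, and *Lsm1* and 1700095B10Rik were the 2 of these that were higher. For *Mgmt*, *March7*, *Mturn* and *Psd3* over 50 of the cells had exactly 1 count and no cell but the top one had more than 2, so that, as for *Hcar2*, what was left of the log-fold was set almost wholly by the totals of the cells. Of the 20 genes most raised in the treated over the uninjected library, 18 had over 50% of their counts in 1 cell, 3 of these in a cell with cone counts and 15 in a cell without. These genes too were picked by their means, and 14 of the 64 treated cells had cone counts.

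**Figure D5:**
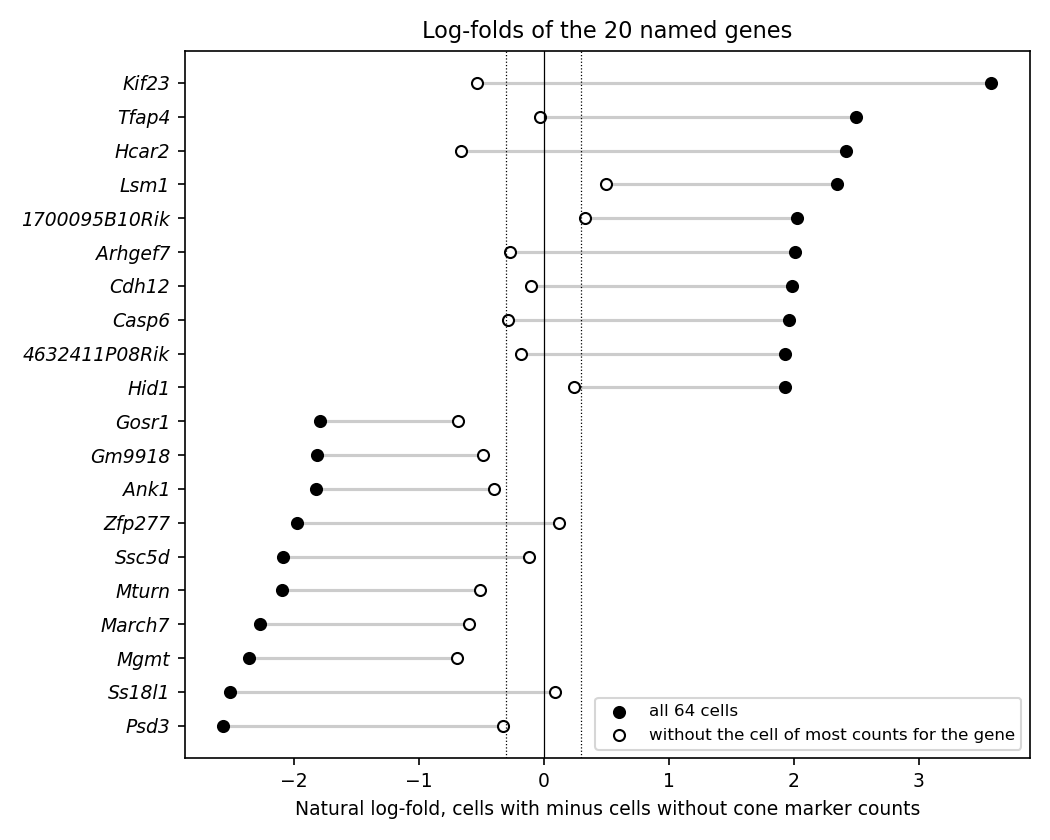
Natural log-fold, treated cells with minus without cone marker counts, for the 10 highest and 10 lowest named genes, over all 64 cells (filled) and without the cell of most counts for the gene (open); dotted lines mark 0.3 in each direction. All 20 open points lie nearer to 0, and those of *Kif23*, *Tfap4*, *Hcar2*, *Arhgef7*, *Cdh12*, *Casp6*, 4632411P08Rik, *Ss18l1* and *Zfp277* lie on the other side of it. The genes were picked as extremes, and each has its top cell in the group where it is higher, so the direction of the move was built in.

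There were 19 genes with a count in every treated cell, and they took 25.9% of the counts of cells with and 24.1% of those of cells without cone counts. Without F01, the cell of 5763 *Kif23* counts, and D07, that of 2143 *Mgmt* counts, the shares were 19.8% and 23.6%, an alternative chosen after seeing the data. *7420701I03Rik* had 2232 and 3920 counts (log-fold 0.03), with medians of 107 and 52 counts per cell. *Pcdhb13*, a clustered protocadherin, had 1955 and 7648 (-0.35), of which 3193 came from 1 cell. Of the 100 genes that led the uninjected library outside the 11 markers, 60 had a count in the 14 cells and 63 in the 50 others. They took 27.3% and 33.4% of the counts, against 36.1% in uninjected cells. The share of the 14 was 30.6% without F01, their deepest cell. That of the 50 was 30.8% without the cell of most counts on this list.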

How the data were processed

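Single GFP-sorted cells were sequenced by the authors with an adapted SMARTseq2 and MARS-seq protocol. The authors aligned the reads with the CLC Genomics Workbench, removed duplicates by UMI and counted them with featureCounts on Gencode annotation. The methods name a GRCh38 mouse genome, and no coordinates of that build were used. The deposited values are whole-number counts per gene and cell without normalization, for 17774 genes and 151 cells. The number of treated cells that the study gives after quality control is not the number in the table.

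Here a gene was kept if 3 or more cells had a count of it (15947 genes), and a cell if it had 200 or more genes and no more than 5% mitochondrial counts (64 treated, 82 uninjected). This left out 2 treated cells, A10 with 1 cone count and B03 with 0. No doublet caller was run, as cells were sorted 1 per well. Treated cells had 420 to 15371 counts and uninjected cells 860 to 98250. Log-folds used counts per 10000 per cell with a pseudocount of 1, a limit of 0.3 and genes found in 10% or more of either group. A log-fold on this scale understates differences of low genes. Intervals are exact Poisson or Clopper-Pearson at 95%, and a 0 was given a floor of 3 counts over the library. UMI counts carry no error between animals or plates.

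Named genes were the 11 markers, the 10 highest and 10 lowest log-folds among genes in at least 25% of either group, and up to 3 genes of most treated counts per list. *Thrb*, *Sag*, *Rcvrn*, *Prph2*, *Rom1*, *Pdc*, *Neurod1*, *Crx*, and *Pcdhb13* and 7420701I03Rik as genes found in every cell, were named after their values were seen. Some single genes are left out of the text. The members and lists were chosen with earlier results of these data known. Alternatives covered depth, pseudocount, scaling, filters, plate side, the rule's threshold and single cells. The calculation was tested on simulated data. Python 3.11.15, pandas 2.3.3, numpy 2.4.6, scipy 1.17.1 and matplotlib 3.10.9 were used.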

Additional observations from a re-analysis of the deposited data

How the results depend on the processing

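No paired analysis was possible because there was 1 library per condition. The share of treated cells with cone counts was 9.38% with at least 2 counts required and 8.77% after thinning, and between 12.9% and 30.3% under the other settings tried. The ratio of median depths ranged from 1.85 to 2.92. The counts of higher and lower genes were 2644 and 1941 with a pseudocount of 0.1 (which moved the median log-fold to 0.18), 577 and 315 after thinning (64.7% higher, against 54.0%, among 1085 genes whose median was 0.43), 664 and 435 with a count in 25% of cells, and 844 and 709 without each gene's top cell. Columns 1 to 6 gave 2266 higher, columns 7 to 12 gave 1834 lower, and no filter on low values gave 1984 lower. Of the 20 named genes, 10 stayed past the limit in the same direction among cells at or above the median depth, 11 in columns 7 to 12 and 9 without their top cell, and 16 or more under every other setting tried. Signs turned as follows, and the cause was not tested beyond the cells left out. After thinning, *Ssc5d* was 0.20 and *Zfp277* 0.26. At or above the median depth, *Arhgef7* was -0.37, *Cdh12* -0.048, 4632411P08Rik -0.34 and *Zfp277* 0.15. With at least 2 cone counts, *Tfap4* was -0.35, *Arhgef7* -0.56 and 4632411P08Rik -0.23. In columns 1 to 6, *Ssc5d* was 0.12 and *Zfp277* 0.036. In columns 7 to 12, *Kif23* was -0.46, *Tfap4* -0.60, *Hcar2* -0.79, *Arhgef7* -0.43, *Casp6* -0.25, *Hid1* -0.0043 and *Ss18l1* 0.18. With the 4 cells of 5 or more cone counts left out, chosen after seeing the data, *Hcar2* was -0.62 and *Casp6* -0.31. Without the deepest cell with cone counts, *Kif23* was -0.53. Without their top cells, *Kif23* was -0.53, *Tfap4* -0.029, *Hcar2* -0.66, *Arhgef7* -0.27, *Cdh12* -0.10, *Casp6* -0.28, 4632411P08Rik -0.18, *Ss18l1* 0.093 and *Zfp277* 0.12. Among the 12 lists whose intervals did not meet, differences in shares, in percentage points with minus without, turned for 7 lists, namely for ribosomal genes after thinning (0.0151) and in columns 1 to 6 (0.0420), for long noncoding RNAs without the deepest cell (-0.0137), without the top cell (-0.0137) and in columns 7 to 12 (-0.0314), for the 20 raised genes in the same settings (-1.92, -1.92 and -3.25), for olfactory and vomeronasal genes in columns 1 to 6 (-0.461), for mitochondrial ribosomal and the 100 leading genes in columns 7 to 12 (0.0232 and 2.04), and for heat shock genes without the top cell (-0.0129). Among the 17 lists whose intervals met, the direction turned in at least 1 of 9 settings for 15. It turned in 6 for mitochondrially encoded genes, in 4 for nuclear oxidative phosphorylation, in 2 for other photoreceptor genes and in 1, without the top cell, for *Chrnb4*, so no direction can be read for these lists.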
